A study of Homo sapiens with 12 samples.

Results

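The BCL2 family decides, at the outer mitochondrial membrane, whether a cell enters the intrinsic pathway of apoptosis. Its transcripts were examined here as 10 genes, BCL2, BCL2L1, MCL1, BAX, BAK1, BCL2L11, BBC3, PMAIP1, BMF and HRK, which were chosen by gene name from the 19923 protein-coding genes counted in each library. All 10 were measured in every library, and all 10 had enough reads to be tested in each comparison.

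SK-N-BE2 and NGP are established lines of human neuroblastoma, a childhood tumour of the sympathetic nervous system, and both are labelled as MYCN-amplified and of genotype WT. Each line was exposed for 6 days to STM2457, a small-molecule inhibitor of the RNA m6A methyltransferase METTL3, or to the solvent DMSO. SK-N-BE2 received 12 µM STM2457 and NGP received 1 µM, with 3 libraries in each of the 4 groups. The comparisons ask how the members' transcripts stood after exposure to the inhibitor in each line, whether the responses of the lines differed, and where the lines stood without it. Line and dose cannot be told apart, since each line had its own dose. The file headers also carry a separate name for each line, so any batch difference between the lines cannot be told apart either. The labels do not say that replicates came from separate cultures, so p-values measure only the spread between these libraries, which may be technical.

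In this family, pro-survival proteins hold the pore-forming proteins BAX and BAK1 in check. BH3-only proteins bind the pro-survival proteins, or act on BAX and BAK1 directly, and so favour permeabilisation of the mitochondrial membrane, release of cytochrome c and activation of caspases. In neuroblastoma the family is studied because MYCN-driven cells are primed for apoptosis and often depend on BCL2 or MCL1.

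The libraries held 47242379 to 58159937 reads assigned to genes. All 8 sympathetic neuroblast markers had reads in each group, although TH stayed at 0.512 CPM in NGP DMSO, with a summed level of 2688 to 4396 CPM (reads scaled to the size of the library) in SK-N-BE2 and 1835 to 2634 CPM in NGP. Leukocyte markers summed to at most 2.17 CPM and epithelial markers to at most 2.45 CPM, while endothelial markers summed to 5.90 to 11.2 CPM in SK-N-BE2 and at most 0.877 CPM in NGP. NGP DMSO replicate 1 stood apart from the replicates of its group: the SD over genes of its log2 difference from the other two was 0.409, against 0.163 to 0.304 in the remaining libraries. Results in NGP are therefore given with and without it where it changed a call. Mitochondrially encoded genes took 2.78 to 3.64% of reads in NGP DMSO and 6.46 to 7.16% in NGP STM2457 libraries, and 8.23 to 11.3% over the SK-N-BE2 libraries of both treatments. The part of this shift in the NGP responses was not tested. METTL3 transcript rose from 54.01 ± 3.26 to 79.5 ± 1.43 CPM in SK-N-BE2 (mean ± SD, n = 3) and from 40.4 ± 3.59 to 77.7 ± 2.46 CPM in NGP (adjusted p = 0.000106 and 0.000300, edgeR), which does not measure the enzyme's inhibition.

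In SK-N-BE2, 4 of the 10 members passed the test, BAX with more transcript after STM2457 and BAK1, BBC3 and PMAIP1 with less. Of all 14013 genes tested in that line 54.7% passed, 26.9% higher and 27.8% lower (edgeR quasi-likelihood test, Benjamini-Hochberg adjusted p under 0.05). In NGP, 7 members passed against a background of 41.7% of 13610 genes, with 19.4% higher and 22.2% lower. MCL1, BAX and BMF rose there, and BAK1, BBC3, PMAIP1 and HRK fell. In SK-N-BE2 the treated and DMSO libraries did not overlap for 4 members, 1 above and 3 below, where that held for 62.2% of all genes (33.2% above and 29.0% below). In NGP they did not overlap for 9 members, 4 above and 5 below, against 54.7% of all genes (28.4% above and 26.2% below). The median log2 fold change of the members was -0.19 in SK-N-BE2, where that of all genes was -0.02, and -0.21 in NGP, where that of all genes was -0.03. Without NGP DMSO replicate 1, all 10 members passed in NGP, 4 higher and 6 lower, where 7897 of 13776 genes tested (57.3%) did. These are bulk libraries, in which fewer cells of a type and less RNA per cell cannot be told apart.

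**Figure D1:**
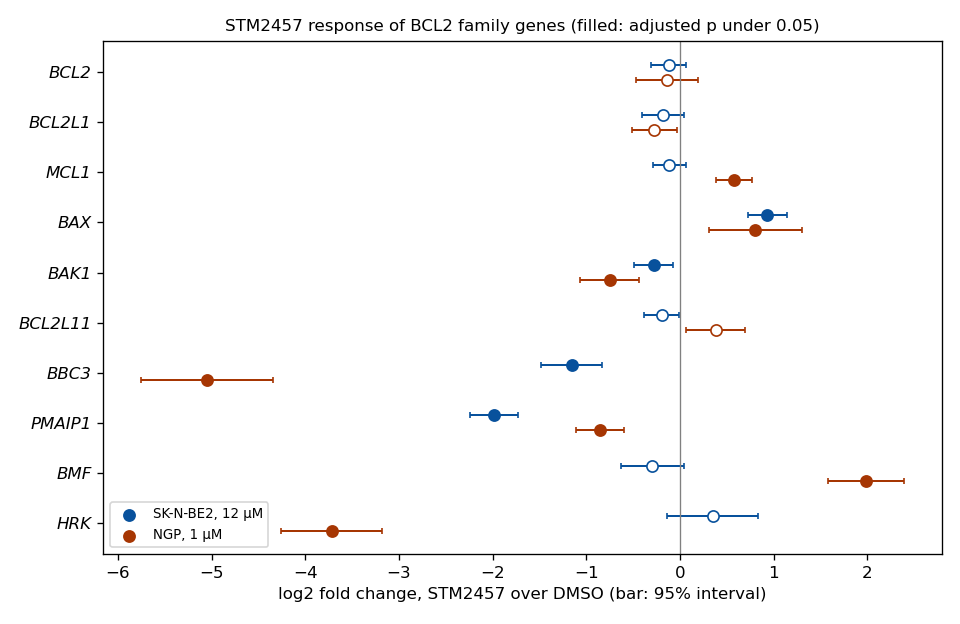
Log2 fold change of STM2457 over DMSO (x axis) for each of the 10 members (y axis) in SK-N-BE2 (blue, 12 µM) and NGP (red-brown, 1 µM). Bars are 95% intervals and filled points passed an adjusted p of 0.05. BBC3 and HRK lie at -5.04 and -3.72 in NGP, while BMF lies at 1.98.

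Among the 5 BH3-only genes, the largest change was that of BBC3 in NGP. BBC3 encodes PUMA, an activator of BAX and BAK1, and HRK encodes Harakiri, a BH3-only protein best known from dying neurons. BAX, described further on, was the pore-forming member that rose in both lines. The bases before the annotated start of these 3 genes are printed because BBC3 and HRK had the largest falls and BAX rose in both lines, and because each window held a motif of a factor known to act on apoptosis genes. They are taken from RefSeq on GRCh38.p14, run 5′ to 3′ on the gene's strand and stop at the first base annotated as exonic. HRK is chr12:116881442-116881691 on the minus strand, with the composite ATF4-CHOP motif in capitals. BBC3 is chr19:47232767-47232917 on the minus strand and BAX is chr19:48954625-48954814 on the plus strand, both with the E-box of MYC-type factors in capitals.
HRK: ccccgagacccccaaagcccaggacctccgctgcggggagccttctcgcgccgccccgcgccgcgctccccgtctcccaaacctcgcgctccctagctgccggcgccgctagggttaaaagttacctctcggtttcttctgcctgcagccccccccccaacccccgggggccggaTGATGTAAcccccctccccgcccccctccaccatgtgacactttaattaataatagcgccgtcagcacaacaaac
BBC3: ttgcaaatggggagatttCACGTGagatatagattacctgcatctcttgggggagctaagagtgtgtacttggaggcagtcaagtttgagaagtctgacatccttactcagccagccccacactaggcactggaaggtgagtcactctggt
BAX: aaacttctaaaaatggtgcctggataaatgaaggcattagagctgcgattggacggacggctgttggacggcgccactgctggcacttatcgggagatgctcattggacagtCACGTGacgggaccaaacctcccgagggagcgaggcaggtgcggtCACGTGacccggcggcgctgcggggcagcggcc

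Over the 250 bases before the RefSeq start, searched on both strands, the letters TGATGNAA stood at positions -75 to -68 of HRK, counted from the start. Those letters were found before 481 of 15085 genes (3.19%) and before 1 of the 9 members with an entry. The E-box CACGTG stood at -232 of BBC3 and at 4 places of BAX, 2 of which fall in the printed stretch. It was found before 9.78% of genes and before 2 of the 9 members, of which BBC3 fell and BAX rose. The FOXO motif GTAAACA stood at -223 of BCL2L11, which was 1 of the 9 members, and before 3.29% of genes. MCL1 had no entry in the table. These are letter matches and describe neither binding nor its absence.

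BBC3 (19:47220822-47232766, minus strand, GRCh38) had 25.9, 23.1 and 34.0 CPM in the SK-N-BE2 DMSO libraries and 14.8, 10.5 and 12.9 CPM after STM2457. In NGP the DMSO libraries held 25.0, 13.2 and 19.97 CPM, and the STM2457 libraries 0.427, 0.770 and 0.592 CPM. Every STM2457 library was below every DMSO library of its line, and in NGP the transcript nearly vanished, with 1259, 677 and 1027 reads before and 20, 36 and 30 after. BBC3 fell by 1.16 on the log2 scale in SK-N-BE2 (SE 0.15, adjusted p = 2.88e-05, edgeR), a 2.23-fold decrease. In NGP it fell by 5.04 (SE 0.31, adjusted p = 1.50e-05, edgeR), which is 32.97-fold and the 28th largest fall among all genes tested in that line. The fall was 3.90 log2 units smaller in SK-N-BE2 than in NGP (SE 0.36, adjusted p = 4.16e-06, edgeR interaction).

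HRK (12:116856144-116881441, minus strand) differed most between the lines without the inhibitor. It stood at 2.098, 3.06 and 3.25 CPM in SK-N-BE2 DMSO and at 46.7, 62.1 and 50.7 CPM in NGP DMSO. After STM2457 the SK-N-BE2 libraries held 3.10, 3.24 and 4.63 CPM and the NGP libraries 3.35, 5.69 and 3.31 CPM. The NGP libraries thus moved from far above those of SK-N-BE2 to or just above the range seen in that line, while the SK-N-BE2 libraries of both treatments overlapped. In NGP, HRK fell by 3.72 on the log2 scale (SE 0.24, adjusted p = 1.79e-05, edgeR), or 13.1-fold, the 77th largest fall. The SK-N-BE2 value was 0.35 (95% interval -0.13 to 0.83, adjusted p = 0.206, edgeR), which does not show that HRK was unaffected there. The responses differed by 4.08 log2 units (SE 0.33, adjusted p = 1.40e-06, edgeR interaction).

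PMAIP1 (18:59899948-59904306, plus strand) encodes NOXA, a BH3-only protein that binds mainly MCL1, and was the member with the largest change in SK-N-BE2. Its levels there were 47.03, 63.4 and 51.3 CPM with DMSO and 13.5, 13.7 and 14.8 CPM with STM2457. In NGP they were 51.6, 52.7 and 59.8 CPM with DMSO and 31.0, 28.5 and 32.8 CPM with STM2457. The DMSO libraries of the lines overlapped, and the treated libraries lay below them in both lines, further below in SK-N-BE2. PMAIP1 fell by 1.98 on the log2 scale in SK-N-BE2 (SE 0.12, adjusted p = 2.92e-08, edgeR) and by 0.85 in NGP (SE 0.11, adjusted p = 0.000557, edgeR), or 3.96-fold and 1.81-fold. The difference of -1.12 (SE 0.16) passed as well (adjusted p = 0.000195, edgeR interaction), in the opposite sense to that of BBC3.

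BMF (15:40087890-40108892, minus strand), a BH3-only protein linked to the cytoskeleton, was the BH3-only gene that passed the test as a rise, in NGP only. BCL2L11, described next, passed as a rise there only under some alternatives. In NGP it went from 4.37, 3.87 and 2.92 CPM to 16.2, 14.8 and 13.9 CPM. In SK-N-BE2 it stood at 14.1, 9.98 and 10.2 CPM with DMSO and 9.82, 7.95 and 11.0 CPM with STM2457. The NGP groups were far apart, whereas those of SK-N-BE2 overlapped. BMF rose by 1.98 on the log2 scale in NGP (SE 0.18, adjusted p = 8.62e-05, edgeR), a 3.96-fold increase. Its SK-N-BE2 value was -0.29 (95% interval -0.63 to 0.04, adjusted p = 0.129, edgeR), and the responses differed by -2.27 (SE 0.26, adjusted p = 2.18e-05, edgeR interaction). The antisense RNA BMF-AS1 covers 8.46% of the exonic bases of BMF, and without strand its reads cannot be told apart from those of BMF.

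BCL2L11 (2:111119378-111168445, plus strand) encodes BIM, an activator BH3-only protein bound by all pro-survival members. It ranged from 48.8 to 56.3 CPM with DMSO and from 44.3 to 50.4 CPM with STM2457 in SK-N-BE2. In NGP it ranged from 17.3 to 24.0 CPM with DMSO and from 27.3 to 28.6 CPM with STM2457, without overlap. Neither response passed the test: the log2 fold changes were -0.20 in SK-N-BE2 (adjusted p = 0.0768, edgeR) and 0.38 in NGP (adjusted p = 0.0560, edgeR). The NGP value passed without NGP DMSO replicate 1 (0.25, adjusted p = 0.0280, edgeR), and the SK-N-BE2 value without SK-N-BE2 DMSO replicate 3 (-0.25, adjusted p = 0.0383, edgeR). The difference between the responses was -0.56 (SE 0.16, adjusted p = 0.0173, edgeR interaction) and was not called without SK-N-BE2 STM2457 replicate 3 (-0.52, adjusted p = 0.0526). The lncRNA MIR4435-2HG lies over 10.9% of its exonic bases on the other strand, so the BCL2L11 values are uncertain. The share of reads that came from the lncRNA was not measured.

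Levels were also divided by the kilobases of exon of each gene. That length joins the exons of all isoforms, so it sets different genes on a common scale only roughly. The 5 BH3-only transcripts summed to 43.3 ± 2.72 CPM per kb in SK-N-BE2 DMSO and 19.7 ± 1.06 in SK-N-BE2 STM2457 (SD, n = 3). In NGP the sums were 42.2 ± 2.06 and 21.5 ± 0.785 CPM per kb. The summed levels were thus near each other in the lines before and after, but their makeup was not. PMAIP1 made up 55.5% of the sum in SK-N-BE2 DMSO and 31.9% in SK-N-BE2 STM2457, where BCL2L11 took 36.2%. In NGP, PMAIP1 went from 57.9 to 63.9% of the sum, HRK from 18.4 to 2.82%, BBC3 from 14.5 to 0.877% and BMF from 1.63 to 12.8%.

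**Figure D2:**
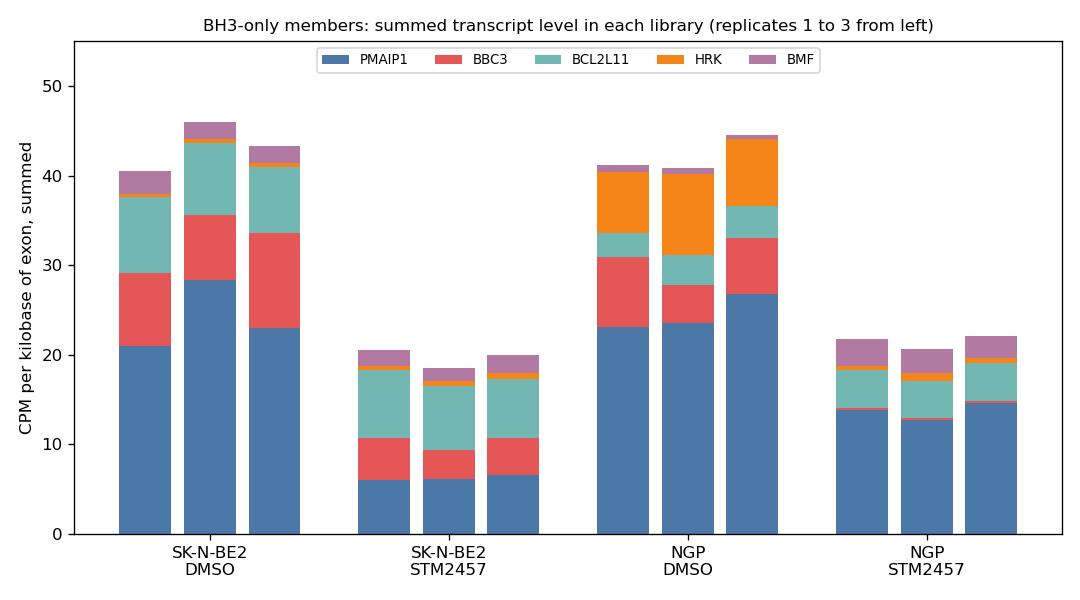
Summed level of the 5 BH3-only transcripts in CPM per kilobase of exon (y axis) in each of the 12 libraries (x axis, 3 per group), with each gene's part in its own colour. The bars start at 0, average 43.3 and 42.2 in the DMSO groups and 19.7 and 21.5 after STM2457, and the HRK part is wide in NGP DMSO libraries only.

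The pore-forming members moved in opposite directions. BAX (19:48954815-48961798, plus strand), which is cytosolic until activated, stood at 18.3, 20.8 and 19.2 CPM in SK-N-BE2 DMSO and 39.9, 35.4 and 39.1 CPM after STM2457. In NGP it stood at 58.6, 30.1 and 36.9 CPM and then at 73.0, 73.5 and 76.7 CPM. All treated libraries lay above all DMSO libraries of their line, and the highest NGP DMSO value was that of replicate 1. BAX rose by 0.93 on the log2 scale in SK-N-BE2 (SE 0.10, adjusted p = 3.67e-06, edgeR) and by 0.80 in NGP (SE 0.22, adjusted p = 0.0171, edgeR). Without NGP DMSO replicate 1 the NGP value was 1.12 (adjusted p = 9.82e-06, edgeR). It was not called without NGP DMSO replicate 3 (adjusted p = 0.0685), NGP STM2457 replicate 1 (0.0507) or NGP STM2457 replicate 3 (0.0521). The responses of the lines differed by 0.14 (95% interval -0.40 to 0.68, adjusted p = 0.716, edgeR interaction), an interval that leaves room for a difference in either direction; without NGP DMSO replicate 1 the value was -0.20 (adjusted p = 0.258).

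BAK1 (6:33572547-33580293, minus strand), the pore former that resides in the mitochondrial membrane, stood at 25.0, 28.4 and 25.9 CPM in SK-N-BE2 DMSO and 22.1, 21.8 and 23.1 CPM after STM2457. In NGP it went from 45.5, 33.04 and 36.2 CPM to 21.3, 24.3 and 23.7 CPM. The groups did not overlap in either line, but they lay close together in SK-N-BE2. BAK1 fell by 0.75 on the log2 scale in NGP (SE 0.14, adjusted p = 0.00319, edgeR) and by 0.28 in SK-N-BE2 (SE 0.09, adjusted p = 0.0221, edgeR). In SK-N-BE2 BAK1 did not pass without DMSO replicate 2 (adjusted p = 0.0534), without STM2457 replicate 1, 2 or 3 (0.0735, 0.0765 and 0.0512), and with all 12 libraries in a common fit (0.111). The difference of 0.48 between the responses (adjusted p = 0.0419, edgeR interaction) did not hold in 8 of 12 leave-one-out fits, with adjusted p up to 0.105. The pseudogenes BAK1P1 and BAK1P2 could share reads with BAK1, so its values are uncertain. Of the summed level of both pore formers per kilobase, BAX made up 38.6 ± 0.136% in SK-N-BE2 DMSO and 59.3 ± 1.27% after STM2457, and 47.6 ± 4.39% and 73.4 ± 1.23% in NGP.

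**Figure D3:**
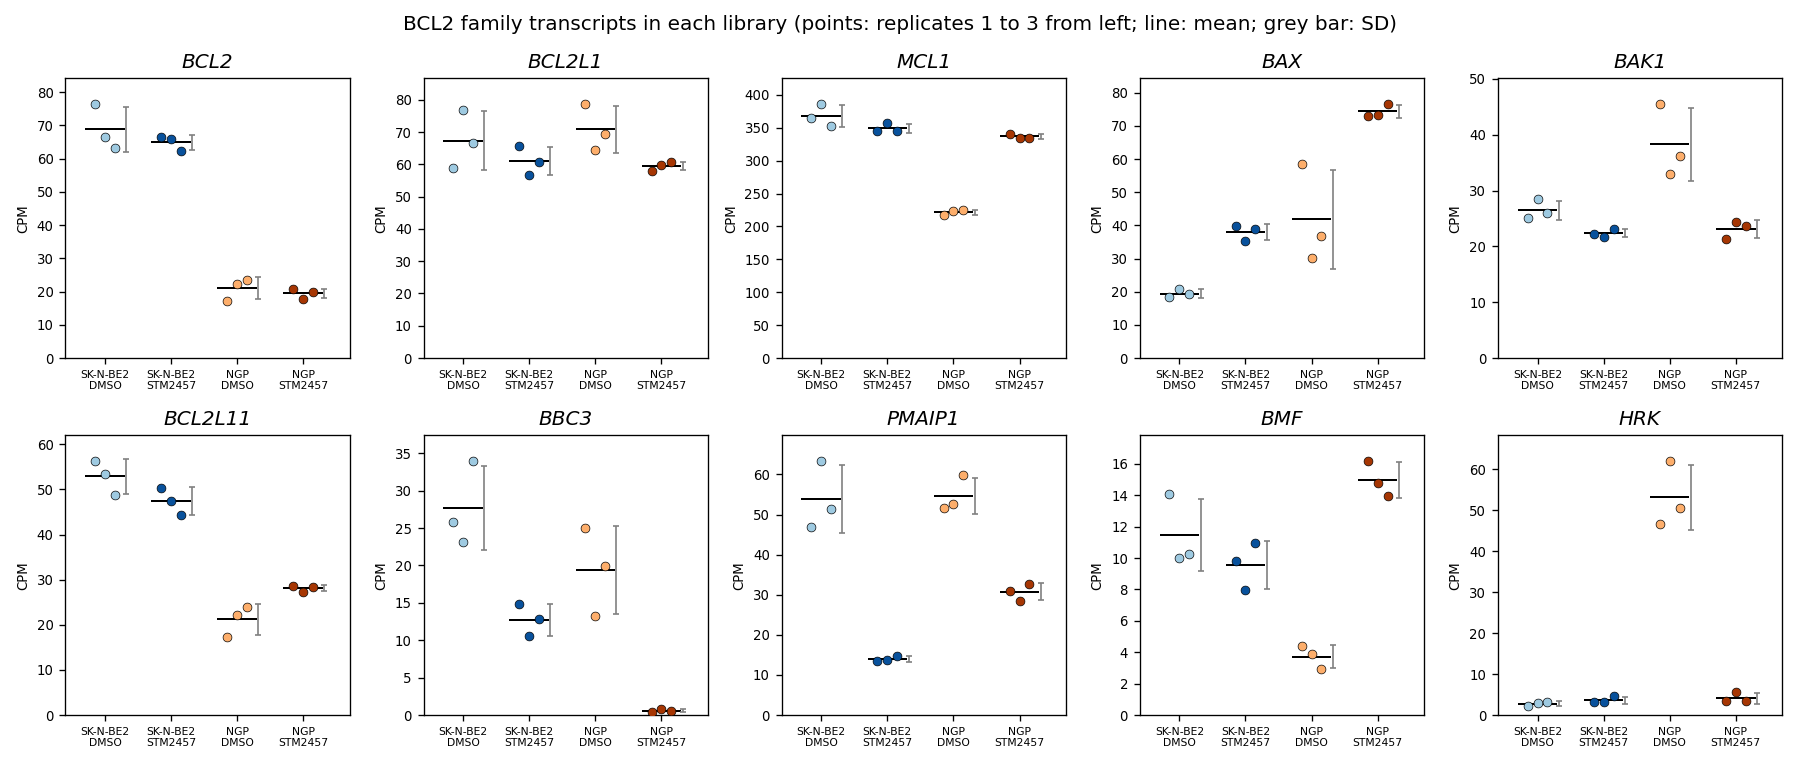
CPM (y axis, from 0) of each of the 10 members in the 12 libraries (x axis, 4 groups of 3 replicates), with the group mean as a line and the SD as a grey bar. BBC3 and HRK sit near 0 in NGP STM2457, MCL1 is separated between the NGP groups only, and BAX is higher after STM2457 in both lines.

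Of the pro-survival genes, MCL1 rose in NGP and no other passed the test in either line. MCL1 (1:150574551-150579738, minus strand), a short-lived protein that NOXA antagonises, stood at 217, 223 and 225 CPM in NGP DMSO and at 341, 335 and 334 CPM after STM2457. In SK-N-BE2 it stood at 364, 386 and 353 CPM and at 346, 357 and 345 CPM. The treated NGP libraries lay just below those of SK-N-BE2, whose groups overlapped. MCL1 rose by 0.58 on the log2 scale in NGP (SE 0.08, adjusted p = 0.000916, edgeR), a 1.49-fold increase. The SK-N-BE2 value was -0.11 (95% interval -0.29 to 0.06, adjusted p = 0.257, edgeR), and the responses differed by -0.68 (SE 0.10, adjusted p = 0.000216, edgeR interaction).

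BCL2 (18:63123346-63320128, minus strand), the founding pro-survival member and the target of venetoclax, ranged from 63.3 to 76.5 CPM in SK-N-BE2 DMSO and from 62.3 to 66.5 CPM after STM2457. In NGP it ranged from 17.3 to 23.4 CPM and from 17.8 to 20.7 CPM. The treated range overlapped the DMSO range in both lines, and the lines were far apart. Its log2 fold changes were -0.12 in SK-N-BE2 (95% interval -0.31 to 0.07, adjusted p = 0.258, edgeR) and -0.14 in NGP (95% interval -0.47 to 0.19, adjusted p = 0.480, edgeR). Without NGP DMSO replicate 1 the NGP value passed at -0.26 (adjusted p = 0.0445, edgeR).

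BCL2L1 (20:31664452-31723989, minus strand), which encodes BCL-XL and, from a shorter splice form, a pro-apoptotic protein, was counted here over all isoforms. It ranged from 58.8 to 76.8 CPM in SK-N-BE2 DMSO and 56.7 to 65.6 CPM after STM2457, and from 64.4 to 78.8 CPM and 58.1 to 60.6 CPM in NGP. The NGP groups did not overlap, those of SK-N-BE2 did. Neither the SK-N-BE2 value of -0.18 on the log2 scale (adjusted p = 0.156, edgeR) nor the NGP value of -0.28 (adjusted p = 0.0647, edgeR) passed. Calls appeared without SK-N-BE2 DMSO replicate 1 (-0.27, adjusted p = 0.0262), without NGP DMSO replicate 1 (-0.20, adjusted p = 0.0323) and without NGP DMSO replicate 2 (-0.34, adjusted p = 0.0440). The lncRNA ABALON covers 43.0% of the exonic bases of BCL2L1 on the other strand, so its values are uncertain. Summed per kilobase, the 3 pro-survival transcripts stood at 110.3 ± 6.01 and 103.8 ± 1.05 CPM per kb in SK-N-BE2 with DMSO and STM2457, and at 73.9 ± 1.37 and 96.7 ± 0.569 CPM per kb in NGP. MCL1 made up 68.7% of that sum in NGP DMSO and 79.7% in NGP STM2457.

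The difference between the responses of the lines passed the test for 7 of 10 members, 3 with a higher value in SK-N-BE2 (BAK1, BBC3 and HRK) and 4 with a lower one (MCL1, BCL2L11, PMAIP1 and BMF). Over all 14731 genes in the fit 30.9% passed, 17.0% higher and 13.9% lower in SK-N-BE2. Within the BH3-only genes all 5 passed, in both directions. BAK1, BBC3 and PMAIP1 fell and BAX rose in both lines. Of these 4, the difference in size passed for BBC3, PMAIP1 and BAK1, though that of BAK1 did not hold in 8 of 12 leave-one-out fits, and for BAX the interval given above leaves the size of any difference unsettled.

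**Figure D4:**
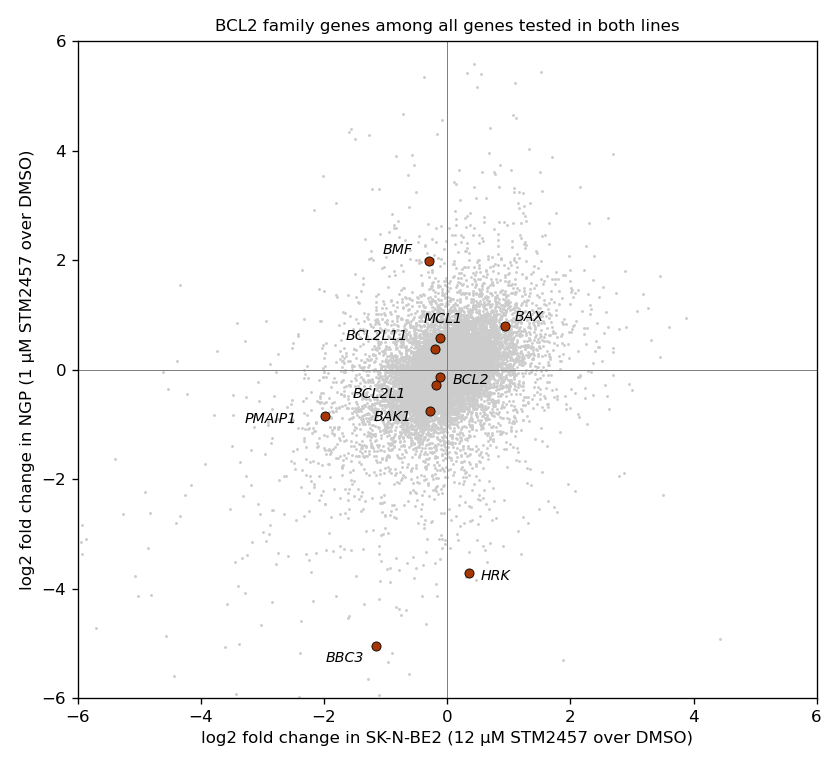
Log2 fold change of STM2457 over DMSO in SK-N-BE2 (x axis) against that in NGP (y axis) for the 12952 genes tested in both lines (grey) and the 10 members (labelled). The axes end at 6 in either direction and leave out 19 genes. PMAIP1 lies at -1.98 and -0.85, BBC3 at -1.16 and -5.04, and HRK at 0.35 and -3.72.

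Without the inhibitor, 8 of 10 members differed between the lines, where 71.1% of all genes did (35.7% higher and 35.4% lower in SK-N-BE2). BCL2, MCL1, BCL2L11, BBC3 and BMF were higher in SK-N-BE2, and BAX, BAK1 and HRK were lower. The DMSO libraries of the lines did not overlap for 7 members, 4 above and 3 below in SK-N-BE2, where 68.9% of genes did not (35.0% above and 33.9% below). The log2 differences, SK-N-BE2 minus NGP, were 1.71 for BCL2 (adjusted p = 1.12e-08, edgeR), 1.32 for BCL2L11 (1.41e-07), 1.62 for BMF (2.21e-06) and 0.73 for MCL1 (4.36e-07). HRK differed most, by -4.25 (SE 0.25, adjusted p = 1.45e-09, edgeR), or 19.0-fold. BAX differed by -1.11 (adjusted p = 7.14e-05, edgeR) and BAK1 by -0.53 (adjusted p = 0.00104), and without NGP DMSO replicate 1 by -0.76 and -0.37. The BBC3 difference of 0.51 was near the threshold (adjusted p = 0.0482, edgeR) and did not hold in 6 of 12 leave-one-out fits, with adjusted p up to 0.179. BCL2L1 (-0.07, 95% interval -0.30 to 0.16) and PMAIP1 (-0.02, 95% interval -0.27 to 0.22) did not pass.

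On the scale of CPM per kilobase, MCL1 had the highest level of the 10 members in every group, at 84.2, 79.9, 50.7 and 77.1 in SK-N-BE2 DMSO, SK-N-BE2 STM2457, NGP DMSO and NGP STM2457. In SK-N-BE2 DMSO, PMAIP1 (24.1) and BCL2L1 (20.3) followed and their libraries overlapped. BAK1 (12.0), BBC3 (8.70), BCL2L11 (7.94), BAX (7.52), BCL2 (5.85), BMF and HRK (0.409) came next, and among these BBC3 overlapped BCL2L11 and BCL2L11 overlapped BAX. In SK-N-BE2 STM2457 the level of BAX was the third, at 14.7 CPM per kb, and PMAIP1 was the sixth at 6.26. No neighbours in the order of that group overlapped. In NGP DMSO, PMAIP1 (24.5), BCL2L1 (21.4), BAK1 (17.3) and BAX (16.2) followed MCL1, and each overlapped the next. HRK (7.76) and BBC3 (6.10) overlapped as well, while BCL2L11 (3.18), BCL2 (1.78) and BMF (0.683) stood apart from each other. In NGP STM2457 no neighbours overlapped: BAX followed MCL1 at 28.8 CPM per kb, and HRK (0.601) and BBC3 (0.188) were the lowest.

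Other genes of the same pathways were counted from lists. Of 13 further BCL2 family genes, 2 rose and 2 fell in SK-N-BE2 (9 tested), and 1 rose and 3 fell in NGP (10 tested). BCL2L12 rose in both lines, by 0.82 in SK-N-BE2 (adjusted p = 0.00312, edgeR) and 2.38 in NGP (adjusted p = 0.00285). Its NGP DMSO libraries held only 1.19, 0.704 and 0.272 CPM. BNIP3L (-0.74), a mitophagy receptor, and BCL2L2 (-0.49), which encodes the pro-survival BCL-W, fell in SK-N-BE2, and the BH3-only gene BAD (-1.19) and BCL2L13 (-1.01) fell in NGP. BCL2L12, BCL2L2 and BAD share 33.1, 26.1 and 23.7% of their exonic bases with other genes, and their values are uncertain. Without SK-N-BE2 DMSO replicate 1 the falls numbered 4, and without NGP DMSO replicate 1 or 2 the rises in NGP numbered 2.

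A further list of 14 genes joined the apoptosome and the caspases with their inhibitors and with mitochondrial channels. It mixes functions, so its counts and median give no direction for apoptosis. Of these genes, 7 rose and 2 fell in SK-N-BE2, and 5 rose and 1 fell in NGP (13 tested). The initiator CASP9 fell in both lines, by 0.79 in SK-N-BE2 (adjusted p = 6.06e-05, edgeR) and by 1.23 in NGP (adjusted p = 0.000702). The scaffold APAF1 (0.78) rose in SK-N-BE2, and the mitochondrial channel VDAC1 (1.06) rose in NGP. The falls in SK-N-BE2 numbered 1 without STM2457 replicate 1, 2 or 3, and those in NGP 2 without DMSO replicate 1. The median log2 fold change of the list was 0.22 in SK-N-BE2 and 0.34 in NGP, against -0.02 and -0.03 for all genes.

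In the death receptor arm, which starts apoptosis from the cell surface, 4 of 8 genes fell in SK-N-BE2 and 0 rose, with 0 rises also at an unadjusted p under 0.05 and in DESeq2. TNFRSF10B (-1.09), FAS (-1.08) and CASP8 (-1.03) fell the most in SK-N-BE2. In NGP, where all 8 genes were lower than in SK-N-BE2 before treatment, FAS (-3.02) and FADD (-0.70) fell and CASP10 (2.61) rose among 7 tested. FAS stood at 0.295 CPM and CASP10 at 0.0718 CPM in NGP DMSO, and the rise was lost without any 1 of NGP DMSO replicates 1 and 3 and NGP STM2457 replicates 1, 2 and 3. The falls numbered 1 without NGP DMSO replicate 1 or 3 or NGP STM2457 replicate 1 or 3. With no filter on low counts, a filter at 1 CPM or halved counts, 0 rose and 1 fell in NGP. FADD and FAS share 54.9 and 18.7% of their exonic bases with other genes.

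Of 5 genes for ligases and a deubiquitinase of MCL1, HUWE1 rose in SK-N-BE2 (0.29, adjusted p = 0.0341, edgeR), a call lost in each fit that left out a library other than DMSO replicate 1. Without SK-N-BE2 DMSO replicate 3, 1 gene of the list fell instead. The edgeR test called 0 of these genes in NGP, 1 at an unadjusted p under 0.05, and DESeq2 called 0, while 4 fell without NGP DMSO replicate 1.

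Of 10 transcription factors known to act on BH3-only genes, 2 rose and 4 fell in SK-N-BE2, and 7 fell and 0 rose in NGP, with 0 rises also at an unadjusted p under 0.05 and in DESeq2. DDIT3, which encodes CHOP, went from 52.9 ± 8.37 to 5.69 ± 0.540 CPM in SK-N-BE2 (SD, n = 3) and from 73.8 ± 24.8 to 7.15 ± 0.487 CPM in NGP. It fell by 3.25 on the log2 scale in SK-N-BE2 (adjusted p = 1.04e-09, edgeR) and by 3.39 in NGP (adjusted p = 2.67e-05), though 39.6% of its exonic bases are shared with other genes. Its partner ATF4 fell by 1.92 in SK-N-BE2 (adjusted p = 8.79e-09, edgeR), where the cell cycle factor E2F1 rose by 1.61 (adjusted p = 5.93e-08). In NGP, ATF4 averaged 564 ± 139 CPM with DMSO and 334 ± 9.92 CPM with STM2457, and E2F1 181 ± 59.0 and 182 ± 10.8 CPM. JUN fell by 1.72 (adjusted p = 0.000153, edgeR) and FOXO3 by 1.49 (adjusted p = 0.000101) in NGP.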

How the data were processed

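Total RNA was enriched for poly(A) RNA, and cDNA libraries were sequenced, per the labels' protocols. The deposited values are raw read counts per gene: per the file headers, the authors ran featureCounts 2.0.5 over exons of GENCODE 33 protein-coding genes by gene name, in paired mode but counting reads rather than pairs, with no strand option. The submitters' processing notes list FastQC 0.11.5, Trimmomatic 0.36, HISAT2 2.1.0, Subread 1.5.3 and GRCh38. Reads of a pair were counted separately, so counts overstate the number of fragments: 72.1 to 75.4% of counts from 1 to 20 were even.

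Each line was fitted on its 6 libraries with the quasi-likelihood test of edgeR 4.0.16 (R 4.3.3; filterByExpr with a minimum count of 10, TMM scaling, Benjamini-Hochberg adjustment over all genes tested, threshold 0.05). The difference of the responses and the DMSO comparison came from a fit over all 12 libraries. The code was tested on simulated data. CPM used TMM scaling over all libraries, and levels per kilobase the exon length in the count files. With 3 libraries a group and 47242379 to 58159937 reads per library, the spread between libraries sets the precision of most values. Beside the 10 members, at most 3 called genes per list and line are named, by the largest absolute log2 fold change, and some genes that this rule would name, and 1 motif that was searched, are not reported here. The members and lists were chosen with earlier results of these data known. Alternatives were DESeq2 1.42.0, its size factors in edgeR, other filters, robust dispersion, halved counts, a replicate block, a common fit of all libraries, and leaving out each library. Exon overlaps came from GENCODE 44, in which all 39 genes checked lay at the same place and strand, and promoter sequences from RefSeq (9 of 10 members matched).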

Additional observations from a re-analysis of the deposited data

Results flagged for a closer look

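For 7 of the 10 members the response to STM2457 differed between the lines by a test of the difference itself (edgeR quasi-likelihood interaction, adjusted p under 0.05), where 30.9% of all genes passed. The log2 difference, SK-N-BE2 minus NGP, was 4.08 for HRK, with means of 2.80 and 3.66 CPM in SK-N-BE2 (DMSO and STM2457) and 53.2 and 4.12 CPM in NGP. It was 3.90 for BBC3, whose means were 27.7 and 12.7 CPM in SK-N-BE2 and 19.4 and 0.596 CPM in NGP. For BMF it was -2.27, with 11.4 and 9.58 CPM against 3.72 and 14.98 CPM. For PMAIP1 it was -1.12, with 53.9 and 13.99 CPM against 54.7 and 30.8 CPM. For MCL1 it was -0.68, with 367.9 and 349 CPM against 221.8 and 336.9 CPM. The differences of BCL2L11 (-0.56) and BAK1 (0.48) were the smallest of the 7 and were not called under every alternative. Dose and line cannot be told apart in any of them.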

How the results depend on the processing

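Of 660 pairs of a member's value and an alternative, 610 kept their direction and side of the threshold, 25 lost the call, 9 gained it and 16 changed sign. The sign changes were all in values that were not called. The BCL2 difference between responses was -0.0047 when genes were kept at a mean of 1 CPM in a group. The PMAIP1 DMSO difference was 0.0030 with DESeq2 and with its size factors, and 0.016 with the CPM filter. Leaving out a library moved the difference between responses from -0.055 to 0.13 for BCL2, -0.0078 to 0.19 for BCL2L1 and -0.20 to 0.33 for BAX, and the DMSO difference from -0.13 to 0.10 for PMAIP1 and -0.15 to 0.050 for BCL2L1. BCL2L11 in NGP was called with DESeq2 size factors (adjusted p = 0.0493), with DESeq2 (0.0268) and in the common fit of edgeR (0.0108).

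Leaving out each library gave 3 to 5 members called in SK-N-BE2 and 6 to 10 in NGP, 5 to 7 for the difference and 7 to 8 for the DMSO comparison. The number of genes called ranged from 6497 to 7849 (SK-N-BE2) and 3816 to 7897 (NGP), or 45.7 to 55.3% and 27.7 to 57.3% of those tested. Over all genes, 24.8 to 42% were called for the difference and 66.5 to 74.1% for the DMSO comparison. Same-numbered DMSO and STM2457 libraries did not deviate together (r from -0.19 to 0.13 over genes), and differently numbered ones had r from -0.34 to 0.31. Deviations from a mean of 3 libraries constrain each other, so these values cannot settle whether the numbers pair the libraries. With a replicate block, SK-N-BE2 had 4 members and 7522 genes called and NGP 7 members and 5026 genes, and the calls for the BAK1 difference (adjusted p = 0.0944, edgeR) and the BBC3 DMSO difference (0.0501) were lost. The number of genes called higher in NGP was 1759 without NGP STM2457 replicate 1, against 2644. In the common fit the falls of the caspase list numbered 1 (SK-N-BE2) and 2 (NGP), the further BCL2 family rises in NGP numbered 2, and HUWE1 was not called. In the death receptor arm, 1 gene fell in NGP with the block. Depth limits BBC3 in NGP STM2457, which rests on 20 to 36 reads per library.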

Other observations

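The genes whose pattern over the 12 libraries was most like that of PMAIP1 were CLYBL, TMEM267 and IDH1, by the root mean square difference of log2(CPM + 0.1) from the DMSO mean of each line. The distances were 0.12, 0.14 and 0.16 log2 units, where the median over 13312 genes was 1.12. CLYBL encodes a mitochondrial enzyme and IDH1 the cytosolic isocitrate dehydrogenase. IDH1 averaged 341.1 and 87.1 CPM in SK-N-BE2 with DMSO and STM2457, and 162.1 and 107.7 CPM in NGP. The genes most like BBC3 were WNT4, TMEM59L and SYT5, at 0.35, 0.39 and 0.40 log2 units against a median of 2.50. WNT4, a secreted WNT ligand, averaged 2.20 and 1.15 CPM in SK-N-BE2 and 7.30 and 0.182 CPM in NGP. SYT5, a synaptotagmin of vesicle release, averaged 50.2 and 20.3 CPM in SK-N-BE2 and 13.6 and 0.706 CPM in NGP. These genes were chosen for their likeness, so their values are a description.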
